A study of Mus musculus with 2 samples.

Results

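The cells described here are epithelial cells of the mouse mandibular arch at embryonic day 9.5 (E9.5) that held RNA of Tfap2b, the gene of a transcription factor of the AP-2 family. They were chosen from counts of unique molecular identifiers (UMIs), each standing for 1 captured RNA molecule. A chosen cell had at least 1 UMI of the epithelial adhesion gene Epcam and at least 1 UMI of Tfap2b. It had no UMI of the endoderm genes Foxa1, Foxa2, Shh and Pax1, and none of the mesenchyme genes Twist1 and Prrx1. Of the 12744 E9.5 cells kept by the quality filter, 150 met all of these conditions, out of 25956 barcodes in the series. A further 1835 cells met the same conditions with Tfap2b at 0 and form the comparison, so that 1985 epithelial cells were selected in all. Below, these groups are called Tfap2b-positive and Tfap2b-zero cells.

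The study made single cell RNA libraries of K14Cre;R26mT/mG mouse embryos, 1 per age. The E9.5 library held unsorted cells of whole mandibular arches pooled from 8 embryos of 1 litter. The E12.0 library held GFP-positive cells sorted from mandibles of 6 pooled embryos of 1 litter. The K14 promoter drives Cre in epithelium and so switches the membrane reporter from tomato to GFP, and this label was not used to choose cells at E9.5. Both groups carried the same alleles and neither was treated. With 1 library per age there were no replicates, so no test was made, and every interval below is an exact 95% interval that covers counting error only.

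AP-2 factors are expressed in the surface ectoderm and in cranial neural crest, and they are known for their part in forming the face and the skin. In the first arch the ectoderm soon divides into an oral part, from which teeth grow, and an aboral part that faces outward and becomes skin. Neural crest cells fill the arch below the epithelium and also transcribe Tfap2b, which makes free RNA and mixed droplets a concern for any epithelial cell defined by this gene.

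The Tfap2b-positive cells had a median of 12540 UMIs and 3792 genes per cell (3914 to 24645 UMIs), and the Tfap2b-zero cells a median of 10968 UMIs and 3541 genes (500 to 27784 UMIs). Summed, the groups held 1899106 and 20391655 UMIs. Mitochondrial genes made up a median of 1.54% and 1.79% of the UMIs. Levels below are counts scaled to a common total (CPM), a gene's summed UMIs divided by all UMIs of the group, times 1000000. A share of cells with a UMI depends directly on depth.

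Tfap2b (chromosome 1, 19208914 to 19238576, GRCm38) was found at 1 UMI in 123 of the 150 cells, at 2 in 17, at 3 in 6, at 4 in 3 and at 8 in 1 cell. Most of the selection thus stands on a single molecule. The 150 cells were 7.56% (6.43 to 8.81) of the selected epithelium. In arch mesenchyme (cells with at least 2 UMIs of Twist1 and Prrx1 and no Epcam) 48.2% of 5829 cells held Tfap2b, and in Epcam-negative cells with at least 2 UMIs of Sox10, a neural crest factor, 73.3% of 487 cells did. Endothelial cells should lack the gene, and 3.64% (1.35 to 7.75) of 165 of them held a UMI at a median depth of 13183 UMIs. Among 433 endoderm cells the share was 3.23% (1.78 to 5.37) at a median depth of 12026 UMIs, against 11105 UMIs for the selected epithelium. The intervals of the epithelial and the endothelial share overlap, while the interval of the endoderm share lies below the epithelial one.

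Depth was then made equal by thinning each cell to 4400 UMIs, which left out 196 of the selected cells. The share with a Tfap2b UMI became 3.19% (2.42 to 4.11) in the selected epithelium, 1.19% (0.388 to 2.76) in endoderm and 0 of 160 endothelial cells, which allows up to 2.28%. At least 2 UMIs of Tfap2b were seen in 27 of the selected epithelial cells (1.36%, 0.898 to 1.97). No endothelial cell (up to 2.21%) and no endoderm cell (up to 0.848%) reached 2 UMIs. As a level, Tfap2b was at 8.75 CPM (7.56 to 10.1) in the selected epithelium, 2.72 CPM (0.996 to 5.91) in endothelial cells, 2.56 CPM (1.40 to 4.30) in endoderm and 64.5 CPM (62.8 to 66.2) in mesenchyme. The epithelial level therefore lay above those of endothelium and endoderm by more than counting error, but cells with 1 UMI cannot be told apart, cell by cell, from cells that took up free RNA. A count of 0 does not show that Tfap2b RNA was absent. Of 146 Tfap2b-positive cells that were thinned, 39.0% (31.1 to 47.5) kept a Tfap2b UMI. The Tfap2b-zero group can thus include cells whose Tfap2b RNA was not captured.

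**Figure D1:**
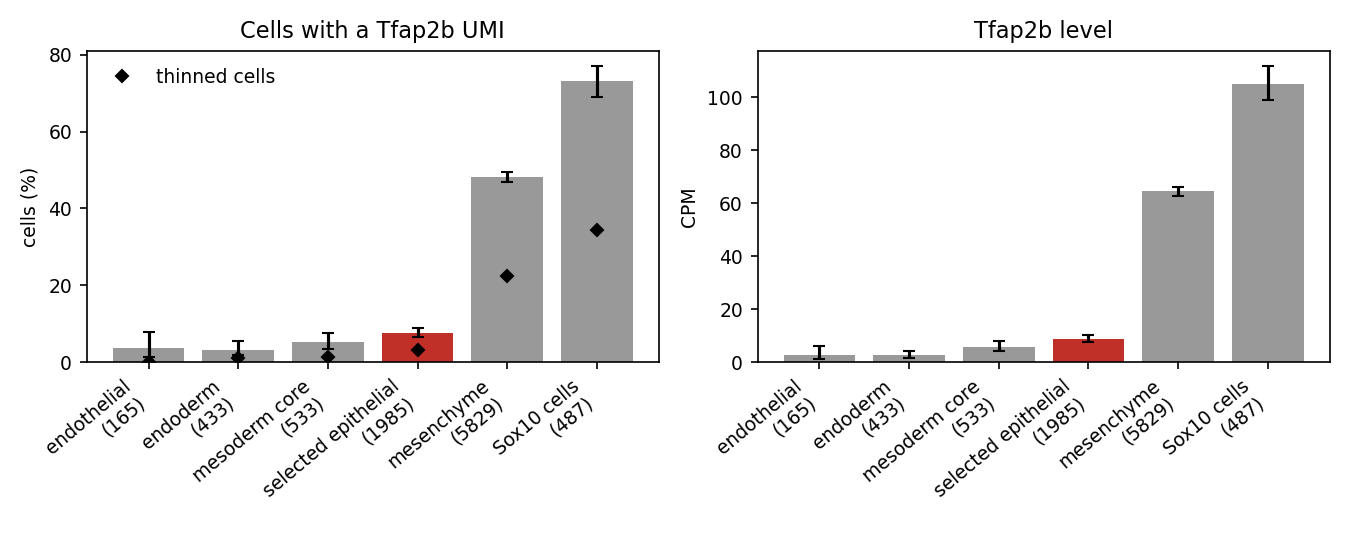
Tfap2b in the classes of E9.5 cells (number of cells in brackets). The left panel gives the percentage of cells with a UMI as bars with exact 95% intervals, with the share after thinning as diamonds, and the right panel the CPM with exact 95% intervals. The selected epithelial cells (red) lie above endothelial and endoderm cells in CPM and far below mesenchyme and Sox10 cells.

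Summed mesenchyme and neural crest markers lay at similar levels in both epithelial groups. The 14 mesenchyme markers summed to 321 CPM (296 to 347) in Tfap2b-positive cells, 356 CPM in Tfap2b-zero cells and 247 CPM in the 27 cells with at least 2 Tfap2b UMIs, against 623 CPM in mesenchyme itself. Dlk1 made up most of the sum in epithelium, with 210 CPM in Tfap2b-positive and 236 CPM in Tfap2b-zero cells, but was at 28.2 CPM in mesenchyme, and 1 of the 14 was at 0 in the Tfap2b-positive cells. Without Dlk1, a step added after seeing the data, the sum was 111 CPM (96.1 to 127) in Tfap2b-positive, 119 CPM (115 to 124) in Tfap2b-zero, 105 CPM (92.3 to 120) in endothelial and 595 CPM in mesenchyme cells. The mesenchyme homeobox gene Prrx2 was at 37.4 CPM in Tfap2b-positive, 40.7 CPM in Tfap2b-zero and 324 CPM in mesenchyme cells. The 8 neural crest markers summed to 34.2 CPM (26.4 to 43.6) in Tfap2b-positive and 39.4 CPM in Tfap2b-zero cells, and to 368 CPM in Sox10 cells. Erbb3 led this list, and 2 members, among them Fabp7, were at 0. The part of mesenchyme and crest RNA in the Tfap2b counts was not tested. Other genes that were abundant in mesenchyme, Nr2f1 and Crabp1, were higher in the Tfap2b-positive cells, as given below.

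Endothelial and endoderm markers were lower in the Tfap2b-positive cells. The 8 endothelial markers, led by Egfl7 and with Tek and Emcn at 0, summed to 33.2 CPM against 78.4 CPM in Tfap2b-zero cells and 2715 CPM in endothelial cells. The 10 endoderm markers, led by Foxe1, summed to 13.2 CPM (8.52 to 19.4) against 59.6 CPM, with 6 members including Hhex, Nkx2-1 and Ttr at 0. Mesoderm core markers summed to 14.7 and 20.9 CPM, and neuronal markers to 21.1 and 16.3 CPM. Without the cells that held endothelial or endoderm markers, the log2 ratios with 5 CPM added were -0.80 for Nkx2-3, -0.78 for Sox2, -1.11 for Pitx1 and -0.78 for Vgll2, against -0.86, -0.75, -1.08 and -0.68 over all selected cells, and the median of the oral and dental list described below was -0.34 against -0.36.

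**Figure D2:**
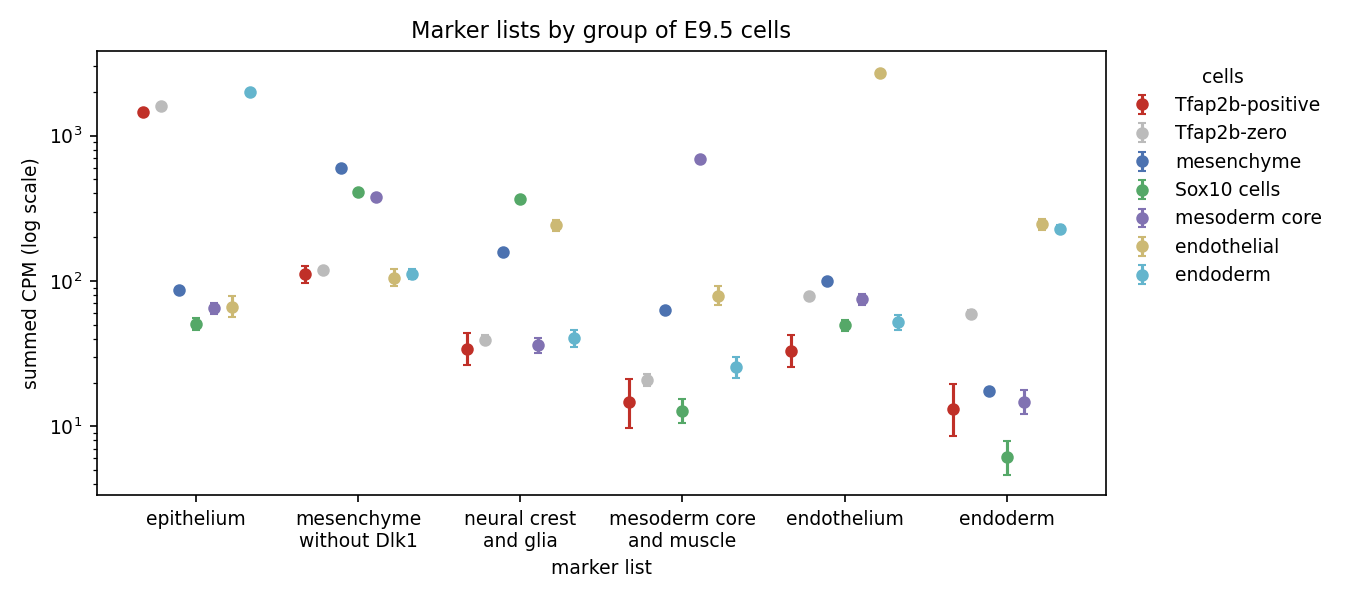
Summed CPM (log axis) of 6 marker lists in Tfap2b-positive cells, Tfap2b-zero cells and the other classes of E9.5 cells, with exact 95% intervals as bars. The mesenchyme list is shown without Dlk1. Mesenchyme and neural crest markers lie at similar levels in both epithelial groups, and endothelial and endoderm markers lie lower in the Tfap2b-positive cells.

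Scrublet compares cells with artificial mixtures made from the same library. It called 331 of the 12744 cells (2.60%) doublets. None of the 150 Tfap2b-positive cells was among them, which allows up to 2.43%, and 10 Tfap2b-zero cells (0.545%) were. RNA of both Xist and a Y-linked gene in a cell, which would come from embryos of both sexes, was seen in 14 Tfap2b-positive cells (9.33%), 123 Tfap2b-zero cells (6.70%) and 8.40% of all kept cells. Mixtures with mesenchyme bear on the condition on Twist1 and Prrx1. Cells that had exactly 1 UMI of Twist1 and Prrx1 held Tfap2b in 8.16% (6.38 to 10.2) of 821 cases, close to the 7.56% of the cells with none, whereas those with at least 2 UMIs did in 47.7% of 1258. The libraries share 51 barcodes, none of them in a Tfap2b-positive cell. One Tfap2b-positive cell carried 5859 hemoglobin UMIs, and no other carried more than 6. The 11 blood markers summed to 3249 CPM in Tfap2b-positive and 843 CPM in Tfap2b-zero cells, and to 144 CPM in the cells with at least 2 Tfap2b UMIs, which do not include that cell. Hemoglobin genes are not described further.

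The cells carried the label's epithelial character. The 7 epithelial markers other than Epcam, among them the keratins Krt8 and Krt18 and the cadherin Cdh1, summed to 1460 CPM in Tfap2b-positive and 1599 CPM in Tfap2b-zero cells, against 86.1 CPM in mesenchyme and 66.5 CPM in endothelial cells. Epcam itself, which the rule requires in every selected cell, was at 559 and 513 CPM. Of the 20 genes of simple epithelium and cell junctions, all measured, 3 were higher in the Tfap2b-positive cells and none was lower. These were the tight junction gene Cldn6 (190 against 132 CPM), the keratin Krt7 (99.5 against 67.3 CPM) and the cadherin Cdh3 (50.6 against 35.1 CPM). Higher and lower mean, here and below, a CPM at least 1.3 times that of the other group after 5 CPM was added to both, and a UMI in no fewer than 15% of cells in the group where it was more abundant. Of 9599 genes with a UMI in at least 5% of the selected cells, 248 (2.58%) were higher and 186 (1.94%) lower in Tfap2b-positive cells. Of these genes, 65 and 39 passed again when each cell was thinned to 4400 UMIs with the groups kept, so a gene near the limits is not a firm result in 150 cells, and counting error alone can bring genes past them. With the Tfap2b-zero cells weighted to the depth of the Tfap2b-positive ones the counts were 257 and 182. Genes named first below have intervals that do not overlap between the groups.

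Pitx1, Nkx2-3, Sox2, Vgll2 and Fgf8, from the list of oral and dental genes, were lower. Pitx1 (chromosome 13, 55825051 to 55836192), a homeobox factor needed for the lower jaw and hindlimb, was at 92.1 CPM (79.0 to 107) in the Tfap2b-positive cells and 200 CPM (194 to 207) in the Tfap2b-zero cells, a log2 ratio of -1.12 (-1.35 to -0.90). Nkx2-3, a homeobox gene of pharyngeal and oral epithelium, was at 99.0 CPM (85.3 to 114) against 183 CPM (177 to 189). For neither gene do the intervals of the groups overlap. Sox2, a progenitor factor of the oral and dental epithelium, was at 59.0 CPM (48.6 to 71.0) against 103 CPM (98.2 to 107). Vgll2, a cofactor of TEAD transcription factors, was at 136 CPM (120 to 153) against 221 CPM (215 to 228). Fgf8, the signal by which the proximal oral ectoderm patterns the arch, was at 87.9 CPM (75.1 to 102) against 135 CPM (130 to 140).

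Among the 15 oral and dental genes that the study names, 13 were measured well enough to compare, 6 of them were lower and 2 higher, beside 1.94% lower and 2.58% higher over all genes. The median log2 ratio of the 13 was -0.36, and that of all genes 0.008. The exceptions were Irx1 and Irx2. The incisor-side factors Isl1 (67.9 against 80.8 CPM) and Tlx1 (46.3 against 61.1 CPM) did not pass the limits. The oral genes were not absent. Vgll2 was detected in 40.7% (32.7 to 49.0) of the Tfap2b-positive and 44.1% of the Tfap2b-zero cells, and Sox2 in 45.3% (37.2 to 53.7) and 48.4%. In endothelial cells the shares for Vgll2 and Sox2 were 5.45% and 0.606%, and in mesenchyme 8.06% and 9.44%. At equal depth the shares for Vgll2 were 30.8% (23.5 to 39.0) and 36.4% (34.1 to 38.8), and those for Sox2 20.5% (14.3 to 28.0) and 29.8% (27.6 to 32.1).

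Within the selection, Nkx2-3, Pitx1, Sox2 and Vgll2 were lower in the cells with 1 Tfap2b UMI and in those with at least 2 than in the cells with none, with intervals apart from that of the last. Nkx2-3 was at 183 CPM (177 to 189) with no Tfap2b UMI, 111 CPM (95.0 to 129) with 1 and 44.2 CPM (24.7 to 72.9) in the 27 cells with at least 2. Pitx1 was at 200, 103 and 41.2 CPM (22.5 to 69.2) in the same order. Vgll2 was at 221, 144 and 100 CPM (69.3 to 140). Sox2 was at 103, 63.5 CPM (51.6 to 77.3) and 38.3 CPM (20.4 to 65.5), and for Sox2 and Vgll2 the intervals at 1 and at least 2 overlapped. In the cells with exactly 2 UMIs Sox2 was at 59.3 CPM (30.6 to 104), and Sox2 and Nkx2-3 each had a single UMI in the 10 cells with at least 3, too few to read a level from. The median depth was 10968 UMIs per cell with no Tfap2b UMI, 12570 with 1 and 12102 with at least 2, and its part in these levels was not tested. Over all Tfap2b-positive cells, with the Tfap2b-zero cells weighted to the same depth, the log2 ratios with 5 CPM added were -0.83 for Nkx2-3, -0.79 for Sox2, -1.10 for Pitx1 and -0.77 for Vgll2, and the median of the oral and dental list was -0.33. The median log2 ratio of the oral and dental list was -1.14 for the cells with at least 2 UMIs, over the 12 members that could be compared there, of which 8 were lower and 2 higher, beside 10.6% lower and 13.1% higher over all genes.

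**Figure D3:**
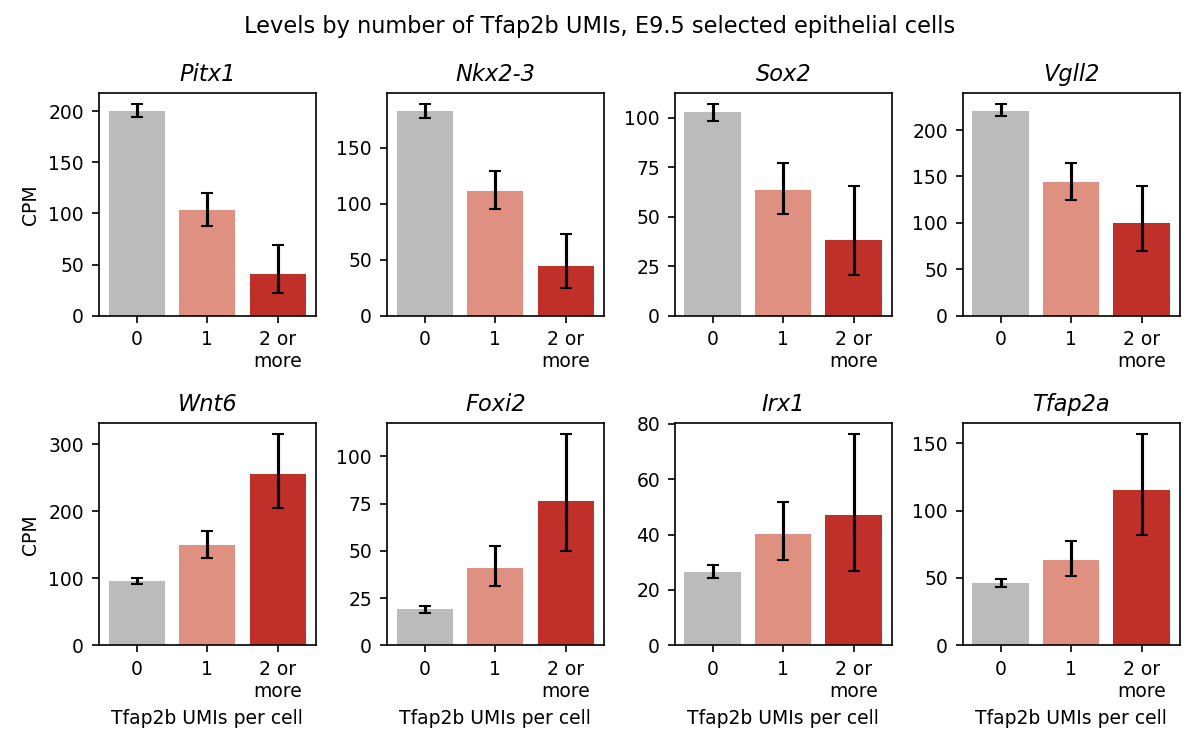
CPM of 8 genes in selected E9.5 epithelial cells with 0, 1 or at least 2 UMIs of Tfap2b, as bars with exact 95% intervals. The 4 oral genes of the upper row are lower with at least 2 Tfap2b UMIs than with none, from 183 to 44.2 CPM for Nkx2-3, and Wnt6 in the lower row increases from 95.4 to 256 CPM.

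Wnt6 and Foxi2 were higher. Wnt6 (chromosome 1, 74771892 to 74785322), a WNT ligand of non-neural ectoderm, was at 169 CPM (151 to 189) in Tfap2b-positive and 95.4 CPM (91.2 to 99.8) in Tfap2b-zero cells, a log2 ratio of 0.82 (0.65 to 1.00). It was detected in 72.7% (64.8 to 79.6) and 43.9% (41.6 to 46.2) of the cells, and in 47.3% (38.9 to 55.7) and 28.7% (26.5 to 31.0) at equal depth. Foxi2, a forkhead factor of cranial ectoderm, was at 47.4 CPM (38.1 to 58.3) against 19.0 CPM (17.1 to 21.0), a log2 ratio of 1.32 (0.97 to 1.65). Wnt6 rose to 256 CPM (205 to 316) and Foxi2 to 76.6 CPM (50.0 to 112) in cells with at least 2 Tfap2b UMIs. Both genes were found together in 28.0% (21.0 to 35.9) of the Tfap2b-positive and 10.4% of the Tfap2b-zero cells. At equal depth the shares were 8.22% (4.32 to 13.9) and 3.41% (2.58 to 4.40), with intervals that overlap slightly. In mesenchyme these genes were at 2.19 and 0.618 CPM, far below either epithelial group. The surface ectoderm and basal keratinocyte list to which Wnt6 belongs did not stand apart. Of its 10 genes compared 1 was higher and 1 lower, beside 2.58% and 1.94% over all genes, and its median log2 ratio was 0.01.

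Slc2a3, the glucose transporter GLUT3, was the most abundant of the named genes that were higher. It was at 1087 CPM (1040 to 1135) in Tfap2b-positive and 608 CPM (597 to 619) in Tfap2b-zero cells. The level was 1036 CPM at 1 Tfap2b UMI, 1058 CPM (921 to 1209) at exactly 2 and 1704 CPM (1493 to 1937) in the 10 cells with 3 or more. The 1319 CPM (1200 to 1447) at 2 or more includes those 10 cells. Over all Tfap2b-positive cells, no single cell held more than 2.52% of the Slc2a3 UMIs. Sostdc1, a secreted inhibitor of WNT and BMP signals, was at 111 CPM (96.6 to 127) against 58.4 CPM (55.1 to 61.8). Mt2, a metal-binding metallothionein, was at 105 CPM (91.2 to 121) against 55.2 CPM (52.0 to 58.5). In mesenchyme these 3 genes were at 32.5, 1.24 and 2.08 CPM.

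Further genes with large ratios were found at low levels. Ror1, a receptor for WNT5A, was at 29.0 against 12.1 CPM and Sulf1, a sulfatase that trims heparan sulfate outside the cell, at 46.9 against 22.9 CPM. The exchange factor gene Arhgef26 was at 33.7 against 16.8 CPM, the matrix genes Ccdc80 and Smoc1 at 51.1 against 26.8 and 36.3 against 19.1 CPM, and the heat shock gene Hspa2 at 18.4 against 8.53 CPM. Tox2, of the HMG box factors, was at 21.1 against 10.1 CPM. For each of these the interval of the log2 ratio lay above 0, which follows in part from their choice among the largest ratios. Hspa2 changed direction with groups set on thinned UMIs (-0.25 with 5 CPM added) and had no UMI in the 10 cells with at least 3 Tfap2b UMIs.

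The higher genes Nr2f1 and Dlx5 were more abundant in mesenchyme than in the Tfap2b-positive cells. Nr2f1, an orphan nuclear receptor gene of the cranial neural crest, was at 30.5 CPM (23.2 to 39.5) in Tfap2b-positive, 12.1 CPM in Tfap2b-zero, 263 CPM in mesenchyme and 407 CPM in Sox10 cells. Dlx5, a homeobox gene of the arches, was at 30.5 CPM against 15.6 CPM, with 90.6 CPM in mesenchyme, and the homeobox gene Pknox2 at 14.7 CPM (9.80 to 21.3) against 6.62 CPM, with 16.3 CPM in mesenchyme, inside that interval. Of the 248 higher genes, 21 (8.47%) were more abundant in mesenchyme than in the Tfap2b-positive cells. The share was 37.9% of all compared genes and 65.1% of the 186 lower genes. A gene chosen for a higher level in these cells is by that choice less often exceeded in mesenchyme. The part of mesenchyme RNA in these differences was not tested.

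**Figure D4:**
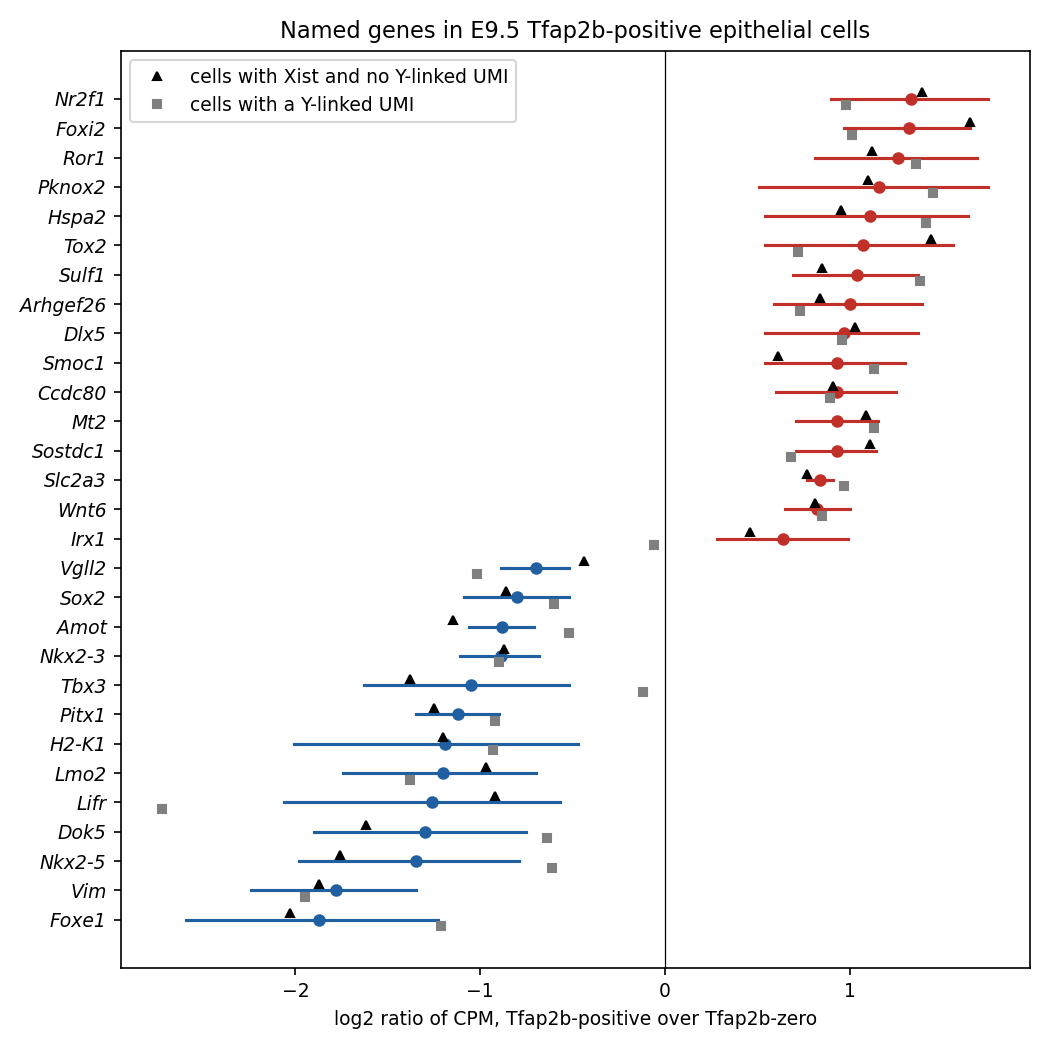
Log2 ratio of CPM, Tfap2b-positive over Tfap2b-zero cells, for the named genes, with exact 95% intervals as bars. Triangles give the ratio in cells with Xist and no Y-linked UMI and squares that in cells with a Y-linked UMI, which lies below 0 for Irx1 (-0.06) and at -0.12 for Tbx3.

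Of 8 genes of the AP-2 family and its partners 5 could be compared, of which Tfap2a and Cited2 were higher and none was lower, beside 2.58% higher over all genes. Tfap2a, the AP-2 factor of ectoderm and neural crest, was at 72.7 CPM (61.0 to 85.9) against 46.5 CPM (43.6 to 49.5), and at 115 CPM (81.7 to 157) in cells with at least 2 Tfap2b UMIs. Cited2, a coactivator that works with AP-2 factors, was at 325 against 245 CPM. Tfap2c, at 6.32 and 5.98 CPM, was not higher. Of the 6 Iroquois homeobox genes, 4 could be compared and were higher, with Irx6 at 0 in the Tfap2b-positive cells and with a median log2 ratio of 0.59. With groups set on thinned UMIs the median was 0.24. Irx3 was at 104 CPM (90.2 to 120) against 66.3 CPM (62.8 to 69.9), Irx5 at 74.8 CPM (63.0 to 88.1) against 55.6 CPM (52.4 to 58.9), and Irx2 at 21.6 CPM (15.5 to 29.3) against 11.7 CPM (10.3 to 13.3). Irx5 stood near the limit of 1.3-fold, with a log2 ratio of 0.40 after 5 CPM was added and of 0.37, short of the limit, without the 1 cell of each group with the highest Irx5 count.

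Irx1 was examined as a further marker of these cells and did not define them. It was at 41.6 CPM (32.9 to 51.8) against 26.6 CPM (24.4 to 29.0), was detected in 44 of the 150 cells (29.3%, 22.2 to 37.3) and in 21.3% of the Tfap2b-zero cells, and was higher in endoderm, at 65.7 CPM. Its level by number of Tfap2b UMIs was 40.4 CPM at 1, 19.8 CPM at 2 and 87.4 CPM (45.2 to 153) at 3 or more. The log2 ratio was 0.64 (0.28 to 0.99) over all cells, 0.46 in cells with Xist and no Y-linked UMI, and -0.06 in cells with a Y-linked UMI. The name Tfap2b-positive epithelium is therefore kept without Irx1.

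Signalling genes differed in small numbers. Over all genes 2.58% were higher and 1.94% lower, and several of the lists below hold a single such gene, from which nothing is read about the list. Of the 6 WNT ligands compared, Wnt6 was higher, while Wnt4 (205 against 159 CPM) and Wnt9b (30.5 against 22.8 CPM) did not pass the limits. Of 10 WNT response genes and antagonists, Sostdc1 and Znrf3, a membrane inhibitor of WNT receptors, were higher (Znrf3 at 20.5 against 13.8 CPM), and the nuclear effector Lef1 (36.9 against 54.8 CPM) and the BMP pseudoreceptor Bambi (34.8 against 48.6 CPM) were lower. Among 7 hedgehog pathway genes, the coreceptors Gas1 (183 against 121 CPM) and Cdon (37.4 against 25.7 CPM) and the transcription factor Gli2 (20.5 against 14.3 CPM) were higher, while the target and receptor Ptch1 stood at 59.5 and 68.3 CPM. Endothelin 3 (Edn3) was at 44.2 against 24.0 CPM and Edn1, the ligand that sets lower jaw identity, at 61.1 against 86.8 CPM, so that the pair of ligands lay in opposite directions. Among FGF receptors and response genes, Fgfr2 was higher (70.6 against 52.0 CPM) and the feedback inhibitor Il17rd lower (14.2 against 27.1 CPM), with 12 compared. The Notch ligand Jag1 was the only higher member of 10 (66.3 against 44.3 CPM). Of 4 BMP and TGF-beta ligands, Tgfb2 alone passed, at 27.9 against 39.6 CPM, and Bmp4 stood at 16.3 and 14.6 CPM.

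Of 21 guidance and adhesion genes, 4 were higher and none lower, beside 2.58% and 1.94% over all genes. These were the chemokine Cxcl12 (124 against 82.6 CPM), the ephrin Efna5 (121 against 89.3 CPM), the semaphorin Sema3c (27.4 against 16.3 CPM) and Slit3 (24.7 against 13.9 CPM). Of 8 placode genes, Foxi2 and the head homeobox gene Otx2 (184 against 132 CPM) were higher, while Eya1 (31.6 and 25.9 CPM) did not pass. In the retinoic acid list, Crabp1, which binds retinoic acid in the cytoplasm, was at 361 against 225 CPM, with 1405 CPM in mesenchyme. The basement membrane genes Nid2 (39.5 against 28.5 CPM) and the integrin Itga6 (69.5 against 98.3 CPM) lay in opposite directions. The basal keratinocyte regulator Trp63 was at 65.3 and 55.6 CPM and the periderm gene Sfn at 36.9 and 35.8 CPM, neither past the limits. No Hox gene of 10 reached the level needed for a comparison.

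Over all Tfap2b-positive cells, S phase and G2/M genes did not stand apart from all genes in the number that passed the limits. None of 42 S phase genes passed. Of 52 G2/M genes only Cdca2 was higher (76.9 against 57.5 CPM), beside 2.58% higher and 1.94% lower over all genes. The median log2 ratios were -0.03 for S phase and 0.15 for G2/M genes, beside 0.008 over all genes. Summed, the S phase genes were at 6194 CPM in Tfap2b-positive and 6195 CPM in Tfap2b-zero cells. The G2/M genes summed to 12084 and 10909 CPM, so this list was shifted upward by less than the fold limit. Mki67 was at 434 CPM (405 to 465) and 333 CPM (326 to 341), a difference beyond counting error that fell just short of the fold limit. In cells with at least 2 Tfap2b UMIs, 13 of the 52 G2/M genes were higher and 5 lower, beside 13.1% and 10.6% over all genes at that small number of cells. Of 6 cell cycle inhibitors and D cyclins compared over all Tfap2b-positive cells, 2 were lower and none higher. These were cyclin D1 (Ccnd1), at 113 against 153 CPM, and the inhibitor Cdkn1c, at 153 against 202 CPM.

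Some of the lower genes are known from cells other than oral epithelium. Vim, an intermediate filament gene, was at 23.7 CPM against 81.4 CPM and at 2500 CPM in endothelial cells. Foxe1, a forkhead factor of the thyroid and pharynx, was at 10.5 against 38.5 CPM, and 1 cell held 45.0% of its UMIs in the Tfap2b-positive group. The cardiac and pharyngeal factor Nkx2-5 was at 13.7 against 35.0 CPM, Lmo2 of blood and vessels at 17.9 against 41.0 CPM and Tbx3 at 15.8 against 32.7 CPM. Amot, a Hippo pathway scaffold on the X chromosome, was at 146 against 269 CPM. Dok5 (14.7 against 36.2 CPM), Lifr (8.95 against 21.5 CPM) and the histocompatibility gene H2-K1 (8.43 against 19.2 CPM), whose reads resemble those of related genes, were at low levels.

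The selected cells were clustered to see where the Tfap2b-positive ones lay, with the genes of the rule and of all lists left out. Of 5 clusters, the largest held 1599 cells and 140 of the 150 Tfap2b-positive cells (93.3%), which made up 8.76% (7.42 to 10.2) of it. A cluster of 237 cells with a median of 3914 UMIs held 7, a cluster of 100 cells led by Hhex, Car7 and Ttn held 1, and one of 32 cells led by Tbx1, Lhx2 and Tcf21 held 2. A cluster of 17 cells led by endothelial genes held none. Tfap2b-positive cells thus formed no cluster of their own at this resolution without the listed genes. Those left out include Tfap2b and the regional genes described above, such as Pitx1, Nkx2-3, Wnt6 and Foxi2. This clustering therefore cannot show whether these genes would set the cells apart. The study describes a cluster of Tfap2b-positive aboral cells in its own clustering of E9.5 epithelium. Within the largest cluster alone, 270 genes were higher and 207 lower, of which 215 and 153 were among the 248 and 186. There the log2 ratios, with 5 CPM added, were -1.10 for Foxe1 and -1.04 for Vim, against -1.49 and -1.59 over all selected cells. The median of the oral and dental list there was -0.31, with -0.79 for Nkx2-3, -0.81 for Sox2 and -1.15 for Pitx1.

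Since Tfap2b encodes a DNA-binding factor, promoters of RefSeq genes (GRCm38.p6, 250 bases before to 50 after the start) were searched for GCCNNNGGC, a sequence that AP-2 factors bind and that reads the same on both strands in its fixed letters. It was found in 31.1% of the 190 higher genes that had a promoter in the collection, 34.1% of 135 lower genes and 30.3% of 7562 compared genes, beside 18.5% of all 27025 genes with a promoter and, counted by promoter, 16.6% of 32851. The share was thus alike in higher and lower genes. A match is a run of letters and no measured binding. Most higher and most lower genes with a promoter held no match, among them Foxi2, Sox2 and Nkx2-3. As 1 example with a match from each direction, the 40 bases before the start of Wnt6 (chr1:74771852-74771891, plus strand) and of Vgll2 (chr10:52022462-52022501, plus strand) follow, with the match in capitals.
Wnt6: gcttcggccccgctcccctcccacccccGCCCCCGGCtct
Vgll2: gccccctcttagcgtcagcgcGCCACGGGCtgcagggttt

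The same rule was applied to the E12.0 library, at an age when Tfap2b is expressed in aboral epithelium. In this sorted library 4672 selected cells were Tfap2b-positive and 4010 Tfap2b-zero, with medians of 6699 and 6284.5 UMIs, so that the positive group was the majority. Neither levels nor shares of Tfap2b-positive cells were compared across the libraries, which were prepared differently, and only the ratio within each was read. Of 9265 genes compared at E12.0, 3.17% were higher and 2.70% lower. Of the 248 genes higher at E9.5, 207 could be compared at E12.0, where 28 were higher and 19 lower. Of the 186 lower genes 170 could be compared, where 25 were lower and 9 higher. Most of the genes on each list therefore passed in neither direction at E12.0.

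Pitx1, Nkx2-3, Sox2 and Fgf8 were lower at both ages. At E12.0, Pitx1 was at 181 CPM in Tfap2b-positive against 458 CPM in Tfap2b-zero cells, Nkx2-3 at 70.4 against 151 CPM, Sox2 at 20.2 against 134 CPM and Fgf8 at 13.1 against 42.1 CPM. Vgll2 was too low there to compare (0.262 and 1.46 CPM). Of the 13 oral and dental genes compared at E12.0, 12 were lower and none higher, beside 2.70% lower and 3.17% higher over all genes. The 12 include Irx1 and Irx2, which were higher at E9.5. The list holds dental markers that the study names at E12.0, so its direction there was in part set by that choice. Wnt6 (350 against 159 CPM), Slc2a3 (92.3 against 31.8 CPM), Mt2 (87.0 against 34.1 CPM), Tfap2a (181 against 89.5 CPM), Irx3 (95.5 against 26.7 CPM), Irx5 (105 against 40.1 CPM) and Gas1 (164 against 47.2 CPM) were higher at E12.0, as at E9.5. Foxi2 had no UMI in either E12.0 group, and Nr2f1 was at 0.0874 and 0.187 CPM there, so neither could be compared.

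Other genes did not have the same direction. Irx1 was at 11.0 CPM in Tfap2b-positive against 66.9 CPM in Tfap2b-zero cells at E12.0, and Irx2 at 14.6 against 36.7 CPM, so these Iroquois genes lay with the oral genes there. Sostdc1 was at 327 against 409 CPM, a log2 ratio of -0.32 that did not pass the limits, with a UMI in 75.3% of the Tfap2b-positive and 63.4% of the Tfap2b-zero cells. Of the anterior and aboral genes that the study names, 23 could be compared at E12.0. There 17 were higher in the Tfap2b-positive cells and 2 lower, beside 3.17% and 2.70% over all genes. The study named such markers, Tfap2b among them, from this same library, so their direction here was in part set by that choice. At E9.5 only 15 of the 24 reached the level for a comparison. Sostdc1, Znrf3 and Meis1 (56.3 against 40.1 CPM) were higher and Lef1 lower, beside 2.58% and 1.94% over all genes. The median log2 ratio was 0.08. Cxcl14, a chemokine that leads this list at E12.0 with 1519 against 129 CPM, was at 1.05 CPM (0.128 to 3.80) in the E9.5 Tfap2b-positive cells and 2.06 CPM in the Tfap2b-zero cells, with a UMI in 2 of the 150 cells. Whether it differed at E9.5 was not detectable at this depth.

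**Figure D5:**
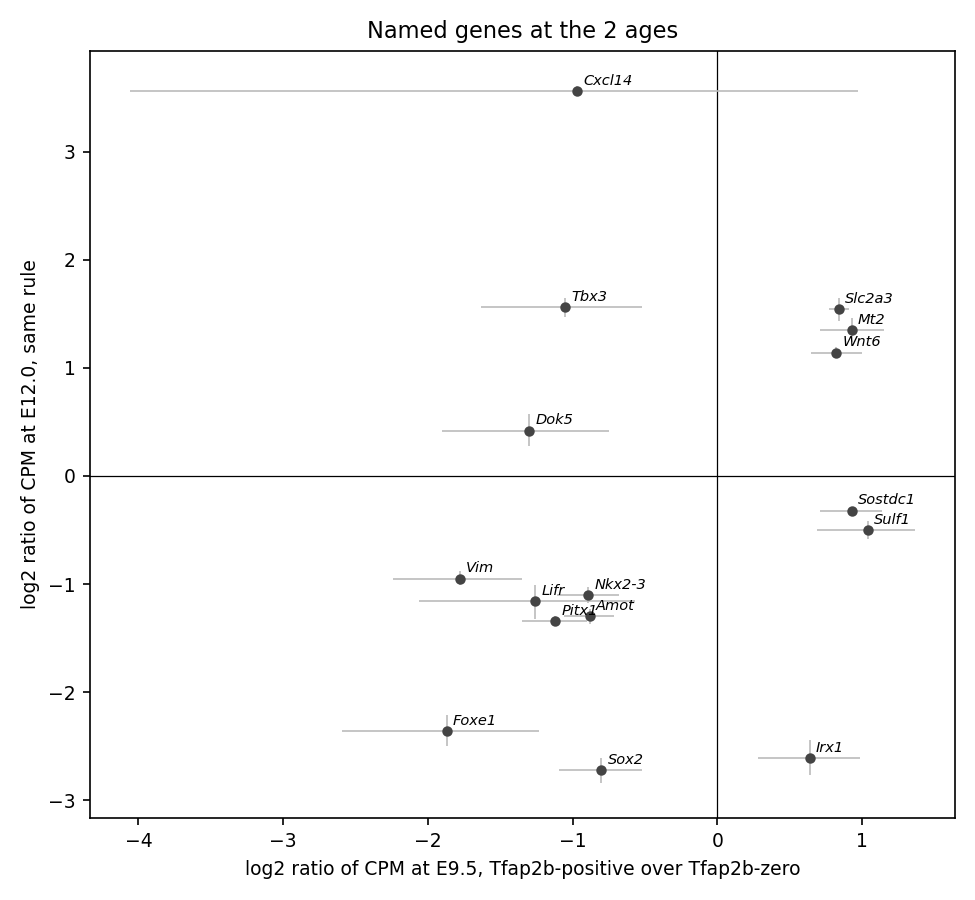
Log2 ratio of CPM between Tfap2b-positive and Tfap2b-zero cells at E9.5 (x axis) and E12.0 (y axis) for 16 named genes, with exact 95% intervals as lines. Of these, 10 have the same sign at both ages, while Irx1, Sostdc1 and Sulf1 are above 0 at E9.5 and below 0 at E12.0.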

How the data were processed

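The authors deposited UMI counts per gene and cell barcode, without normalization, for both libraries, already limited to barcodes called as cells. Their methods give Cell Ranger 2.0.0 and GRCm38, while the file headers give 6.1.2 (E9.5) and 3.1.0 (E12.0). The E9.5 file lists 31053 genes and 14293 barcodes, and the E12.0 file 27998 genes and 11663 barcodes.

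Cells with 200 to 5500 genes and at most 10% mitochondrial UMIs were kept (12744 and 11355 cells, 166191431 and 77936364 UMIs). UMIs were summed per group and given as CPM with exact Poisson intervals, log2 ratios with exact binomial intervals and shares with Clopper-Pearson intervals. The 8 genes of the rule were left out of counts. Doublets called by Scrublet were kept. Promoters of 1 chromosome were not used here. Cells were clustered after log normalization with 2000 variable genes, 30 principal components and Leiden resolution 0.2. Scripts used Python 3.11.15, numpy 2.4.6, scipy 1.17.1, pandas 2.3.3 and scanpy 1.11.5, and the sums and calls were tested on simulated data.

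The named genes are Epcam, Tfap2b, Irx1, Sox2, Vgll2 and Cxcl14, the 15 higher and 12 lower genes with the largest ratios that held their direction in thinned cells with the groups set before thinning, in cells with Xist and no Y-linked UMI, and in cells with a Y-linked UMI (14 of these 45 Tfap2b-positive cells also held Xist), and up to 4 genes per list. Not every named gene is reported. A few list members outside that rule were chosen after their values were seen. The members, lists and rules were chosen with earlier results of these data known. Alternatives changed the filters, limits, weights, depth, Xist or Y-linked cells and cell composition. Those leaving out cells with hemoglobin, with endothelial or endoderm markers, or outside the largest cluster were added after seeing the data.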

Additional observations from a re-analysis of the deposited data

Results flagged for a closer look

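Genes named only through a list are not counted here. For 10 other named genes outside the selection rule, the log2 ratio between Tfap2b-positive and Tfap2b-zero cells had opposite signs at the 2 ages. Both counting intervals lay away from 0, and the difference between the ages was not tested. Irx1 had a log2 ratio of 0.64 at E9.5 and -2.61 at E12.0. Of these genes, those above 0 at E9.5 and below it at E12.0 were also Pknox2 (-2.36 at E12.0), Arhgef26 (-0.94), Ror1 (-0.74), Tox2 (-0.56), Sulf1 (-0.50), Dlx5 (-0.33) and Sostdc1 (-0.32). The T-box gene Tbx3 was below 0 at E9.5 and at 1.56 at E12.0, and Dok5, an adaptor of receptor signalling, was below 0 at E9.5 and at 0.42 at E12.0. Irx2, named only through a list, also lay in opposite directions at the 2 ages, as given above. Pknox2, Tox2, Dlx5, Ror1 and Arhgef26 had a UMI in too few E12.0 cells to be counted among the genes compared there. The libraries differ in age, sorting, sequencing depth and the cell types that the rule left out, which cannot be told apart.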

How the results depend on the processing

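No paired analysis was possible because each age had 1 library, and for the same reason no replicate could be left out. The number of genes higher and lower in Tfap2b-positive cells (248 and 186) changed with many settings. It became 405 and 412 with groups set on thinned UMIs, of which 45 and 36 were among the original genes, 1258 and 1017 with at least 2 Tfap2b UMIs (27 cells), 447 and 435 in cells with Xist alone and 973 and 670 in cells with a Y-linked UMI (45 cells). It became 157 and 113 with up to 1 UMI of Twist1 and Prrx1 allowed, 50 and 43 at a fold of 1.5, 5 and 7 at a fold of 2, 147 and 89 with a UMI in 25% of cells, and 375 higher with 1 CPM added. Thinned with the groups kept, the counts were 283 and 234, but only 65 and 39 genes were shared. The share of Tfap2b-positive cells was 3.39% when both Tfap2b and Epcam were read after thinning and 1.36% with at least 2 UMIs. The median log2 ratio with 5 CPM added was -1.11 at 2 or more UMIs for the oral and dental list, over the same 13 genes as for all Tfap2b-positive cells, and with groups set on thinned UMIs 0.24 for the Iroquois and -0.32 for the anterior and aboral list. Of 496 values of 31 named genes under 16 alternatives, 433 moved by less than their counting interval, 60 moved by more and 3 changed sign. These were Irx1 (-0.05 in cells with a Y-linked UMI and -0.05 with groups set on thinned UMIs) and Hspa2 (-0.25 with groups set on thinned UMIs). The higher and lower named genes were chosen partly for holding their direction in thinned cells with the groups kept. They were also chosen for holding it in cells with Xist alone and in cells with a Y-linked UMI. For them the lack of sign changes in those settings was therefore set by the choice. The cause of the changes above was not tested.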
